A study of Mus musculus with 56 samples.

Results

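Chaperones of the heat shock response and of the endoplasmic reticulum (ER) were followed in cultured mouse cortical neurons in which topoisomerases, transcription or the redox state had been disturbed. The set held 40 genes taken by symbol, 20 cytosolic and mitochondrial chaperones and their co-chaperones (the heat shock group) and 20 chaperones, folding enzymes and stress sensors of the ER (the ER group), among 18194 to 22180 genes with a probe set of a single symbol on the 3 array types. The rule names the genes by symbol and uses no measured value, but the genes were chosen with earlier results of these data known. A single-symbol probe set was found for 38 members on the 12 3' arrays, for 34 on the 10 earlier gene-level arrays and for 36 on the 34 later gene-level arrays. All of these passed the filter on dim genes, which takes the mean over all arrays of a type, so a gene can be dim in single groups. Hsp90ab1 and Hsf1 were not analysed here. Dnaja1 and Pdia4 lacked a single-symbol probe set on the later gene-level arrays, and Pdia4, Hspa1a, Hspa1b and Cryab lacked one on the earlier ones.

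The cells were C57BL6 cortical neurons from embryos of day 13 to 15, kept for 7 days in vitro and then given a drug or its vehicle for 24 or 72 h, with the hours not labelled for most groups. Total RNA was measured on 56 Affymetrix arrays. The 3' arrays held topotecan at 300 nM against its vehicle and ICRF-193 at 3 µM against its vehicle (3 arrays in each group). The earlier gene-level arrays held a topotecan series of 3, 30, 150, 300, 500 and 1000 nM (1 array a dose, 2 at 300 nM) against 3 vehicle arrays. On the later gene-level arrays were topotecan at 1 µM against vehicle (6 arrays each), irinotecan at 10 µM (3 arrays), a 24 h topotecan array of unlabelled dose and a 24 h topotecan array after washout, all against the same 2 vehicle arrays. They also held Top1 shRNA and Top2b shRNA, each against the same control shRNA (3 arrays each). DRB at 100 µM was set against 1 vehicle array, and hydrogen peroxide (H2O2) at 100 µM and paraquat at 10 µM, 1 array each, against the same 2 vehicle arrays. Topotecan and irinotecan are camptothecin-class drugs that trap topoisomerase 1 on DNA. ICRF-193 is a catalytic inhibitor of topoisomerase 2, DRB blocks the kinase that releases RNA polymerase II into elongation, and paraquat generates superoxide by redox cycling. Nothing in the labels says that replicates were separate cultures, so each p-value speaks of the spread among these arrays, which may be technical.

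Heat, oxidants and other insults that unfold proteins free the transcription factor HSF1, which trimerises and binds heat shock elements, inverted repeats of the unit GAA, ahead of chaperone genes. The inducible HSP70 proteins (Hspa1a, Hspa1b), their J-domain partner Dnajb1 and the small heat shock proteins then hold or refold client proteins. Unfolded protein in the ER instead draws the HSP70 protein BiP (Hspa5) away from the membrane sensors ATF6 and IRE1 (Ern1). ATF6 is cut to an active transcription factor, IRE1 splices the Xbp1 transcript, and both raise ER chaperones through ER stress elements. Neurons are known for a weaker rise of inducible HSP70 after heat than glia, and Cryab is known in brain mainly from glial cells.

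The promoters are shown because each arm of the response has its own short motif, so a reader can see where the groups differ in sequence before the values are read. Promoter windows of 300 bases (250 before and 50 after the transcription start, RefSeq, GRCm38.p6) were found for 32 of the 40 members, 15 of the heat shock group and 17 of the ER group. Hspa8, Hsp90aa1, Hsp90ab1, Cryab, Hsf1, Manf, Hyou1 and Atf6 were not matched. The 150 bases that end just before the start are printed, read towards the gene, with each match in capitals. Capitals mark the heat shock element of 2 units, GAANNTTC, which is its own reverse complement, in Hspa1a (chr17:34972157-34972306, minus strand), Hspa1b (chr17:34959239-34959388, minus strand) and Hspb1 (chr5:135887769-135887918, plus strand). They mark the ER stress element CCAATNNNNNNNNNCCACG in Hspa5 (chr2:34771940-34772089, plus strand) and the ER stress element II, ATTGG and CCACG set apart by 1 base of any kind, in Herpud1 (chr8:94386279-94386428, plus strand). Hspa1a and Hspa1b are near-identical copies, and their windows differed at 4 of 300 bases.
Hspa1a: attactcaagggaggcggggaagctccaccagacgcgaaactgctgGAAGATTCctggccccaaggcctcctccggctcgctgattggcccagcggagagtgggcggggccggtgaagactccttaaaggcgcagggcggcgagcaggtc
Hspa1b: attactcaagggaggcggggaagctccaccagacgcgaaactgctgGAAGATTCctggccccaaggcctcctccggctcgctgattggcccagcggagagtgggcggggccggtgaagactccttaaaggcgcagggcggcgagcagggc
Hspb1: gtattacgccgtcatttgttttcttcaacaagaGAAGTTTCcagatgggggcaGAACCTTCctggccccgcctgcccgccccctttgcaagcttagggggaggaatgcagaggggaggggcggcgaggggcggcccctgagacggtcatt
Hspa5: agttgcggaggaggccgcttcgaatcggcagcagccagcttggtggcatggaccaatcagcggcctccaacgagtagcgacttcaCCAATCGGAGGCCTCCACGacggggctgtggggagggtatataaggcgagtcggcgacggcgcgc
Herpud1: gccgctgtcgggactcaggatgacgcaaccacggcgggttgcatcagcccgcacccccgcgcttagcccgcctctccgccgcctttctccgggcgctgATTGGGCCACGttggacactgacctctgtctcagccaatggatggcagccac

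Each motif was searched on both strands of every window. GAANNTTC lay in the window of 10 of 15 heat shock genes (Hspa1a, Hspa1b, Hspb1, Hspb8, Hsph1, Dnaja1, Bag3, Chordc1, Hspd1 and Hspe1), in 0 of 17 ER genes and in 9.04% of all 27025 genes with a window. The element of 3 units adds NNGAA to the end of GAANNTTC, so each of its matches holds the shorter element, and it lay ahead of Chordc1, Hspd1, Hspe1 and Hsph1, in 0 of 17 ER genes and in 0.662% of all genes. Hspd1 and Hspe1 are transcribed away from each other and share part of their windows. The ER stress element lay in 7 of 17 ER genes (Hspa5, Hsp90b1, Calr, Canx, Pdia6, Dnajc3 and Creld2), in 0 of 15 heat shock genes and in 0.137% of all genes. The ER stress element II lay ahead of Herpud1 and Dnajb11, in 0 of 15 heat shock genes and in 0.0444% of all genes. Hspb1 had 2 matches of the heat shock element, 117 and 97 bases before the start. The Bag3 match lay after the transcription start. A match describes letters in this window only and is not a measured binding site.

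**Figure D1:**
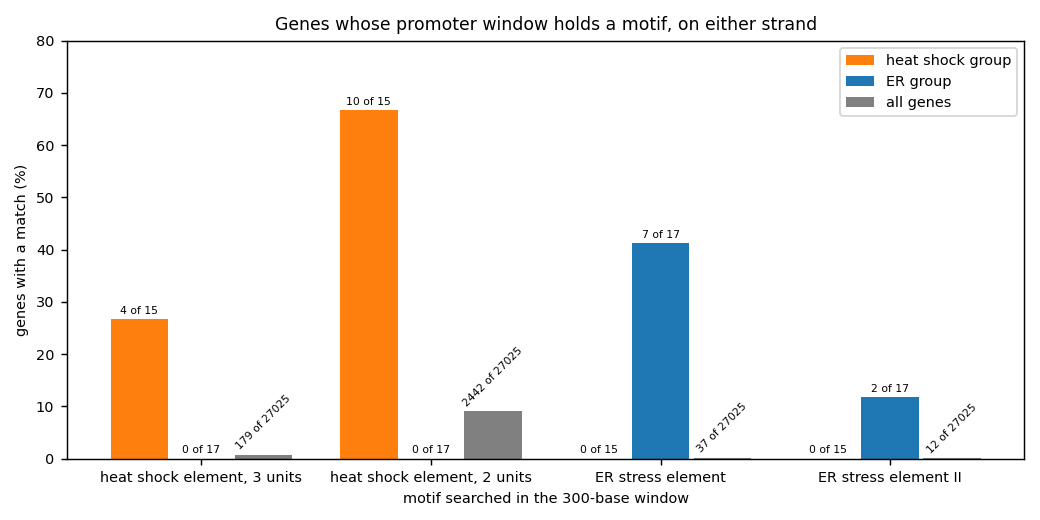
Share of genes (percent, vertical axis) whose 300-base promoter window holds each of 4 motifs, for the heat shock group (15 genes), the ER group (17 genes) and all 27025 genes with a window; the counts stand above the bars. Both heat shock elements were found in the heat shock group and in 0 of 17 ER genes, and both ER stress elements in the ER group and in 0 of 15 heat shock genes.

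Neither knockdown moved its own target past the test over all 3 replicates: Top1 changed by -0.57 ± 0.26 with Top1 shRNA (log2, SE, adjusted p = 0.193) and Top2b by -1.19 ± 0.47 with Top2b shRNA (adjusted p = 0.22), in limma with Benjamini-Hochberg adjustment over all genes tested. Replicate 1 of each shRNA group stood apart from replicates 2 and 3 in array mean, at 177.6 to 180.3 against 137.8 to 143.1 in linear intensity. It is therefore taken as another array set, which the labels do not name, in the fits with the array set as a block. The main fit has no such block, and calls below come from it unless a block is named. Over replicates 2 and 3 alone, Top2b changed by -1.44 with Top2b shRNA (adjusted p = 0.00185) and Top1 by -0.17 with Top1 shRNA (adjusted p = 0.361). Directions with Top1 shRNA therefore rest on arrays labelled Top1 shRNA whose Top1 signal was not shown to be lower. That limit weighs more on the changes given below within replicates 2 and 3 alone, since the larger fall of Top1 lay in replicate 1. Of the members called with Top1 shRNA without a block, replicate 1 was the lowest Top1 shRNA array in Cryab, Hspa4l and Pdia3, and not in Bag3. It was also the lowest in Hspb1 and Hspb8. The 10 neuron markers averaged 8.38 to 12.23 in log2 intensity over all arrays, and markers of astrocytes (6.51 to 10.91) and of fibroblasts and mural cells (6.38 to 10.79) were also bright. The RNA is bulk RNA, so fewer cells of a type and less RNA per cell cannot be told apart.

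Across the 6 replicated treatments, a few members moved and most of the set did not pass the test. Topotecan at 300 nM called 0 of 38 members, beside 4.40% of all genes called in either direction (1.30% higher, 3.10% lower). An unadjusted p under 0.05 in limma was found for 2 of 38 members, beside 21.6% of all genes. ICRF-193 lowered 5 of 38 members, all in the ER group (Herpud1, Pdia4, Dnajc3, Pdia6 and Dnajb11), beside 10.3% of all genes lower and 18.6% in either direction. Topotecan at 1 µM raised Hspb1, Cryab, Bag3 and Pdia3 and lowered Atf6, Hspb8, Hsph1 and Chordc1, 8 of 36 members, beside 39.1% of all genes in either direction (18.3% higher, 20.8% lower). Irinotecan raised Cryab, Bag3, Dnajb9 and Ern1 and lowered Atf6, beside 28.2% of all genes in either direction (16.5% higher, 11.7% lower). Top1 shRNA raised Cryab, Bag3, Hspa4l and Pdia3, beside 6.08% of all genes higher and 5.79% lower, and Top2b shRNA raised Cryab, beside 1.99% higher and 1.12% lower (3.11% in either direction). With the array set of the knockdowns as a block, 7 members were higher and 1 lower with Top1 shRNA, beside 13.6% and 14.8% of all genes, and 4 were higher with Top2b shRNA, beside 7.70%. Within replicates 2 and 3 alone, 13 were higher and 2 lower with Top1 shRNA, beside 20.1% and 24.5%, and 5 higher and 3 lower with Top2b shRNA, beside 10.1% and 12.5%.

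Of 18 heat shock genes tested, 7 were called at least once in these 6 comparisons, and 11 were not. Of 20 ER genes, 9 were called at least once and 11 were not. Over all 14088 genes tested in any of the 6 comparisons, 56.2% were called at least once. Cryab was called higher in 4 of the 6 comparisons, Bag3 in 3 and Pdia3 in 2, and Atf6 was called lower in 2. The knockdowns share their control arrays. The inducible HSP70 genes Hspa1a and Hspa1b, the constitutive Hspa8, Hsp90aa1, BiP (Hspa5), Hsp90b1, the lectin chaperones Calr and Canx, and Xbp1 were called in 0 of the 6 comparisons in the fit without a block. Hspa8 was called with topotecan at 1 µM once the mean of its probe sets was taken. With the array set as a block, Hsp90b1 and Xbp1 were called with Top1 shRNA, and both are given below. The log2 intensity of a gene is a level, and the changes given below are differences of log2 levels, treated minus control, with the standard error of the fit.

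**Figure D2:**
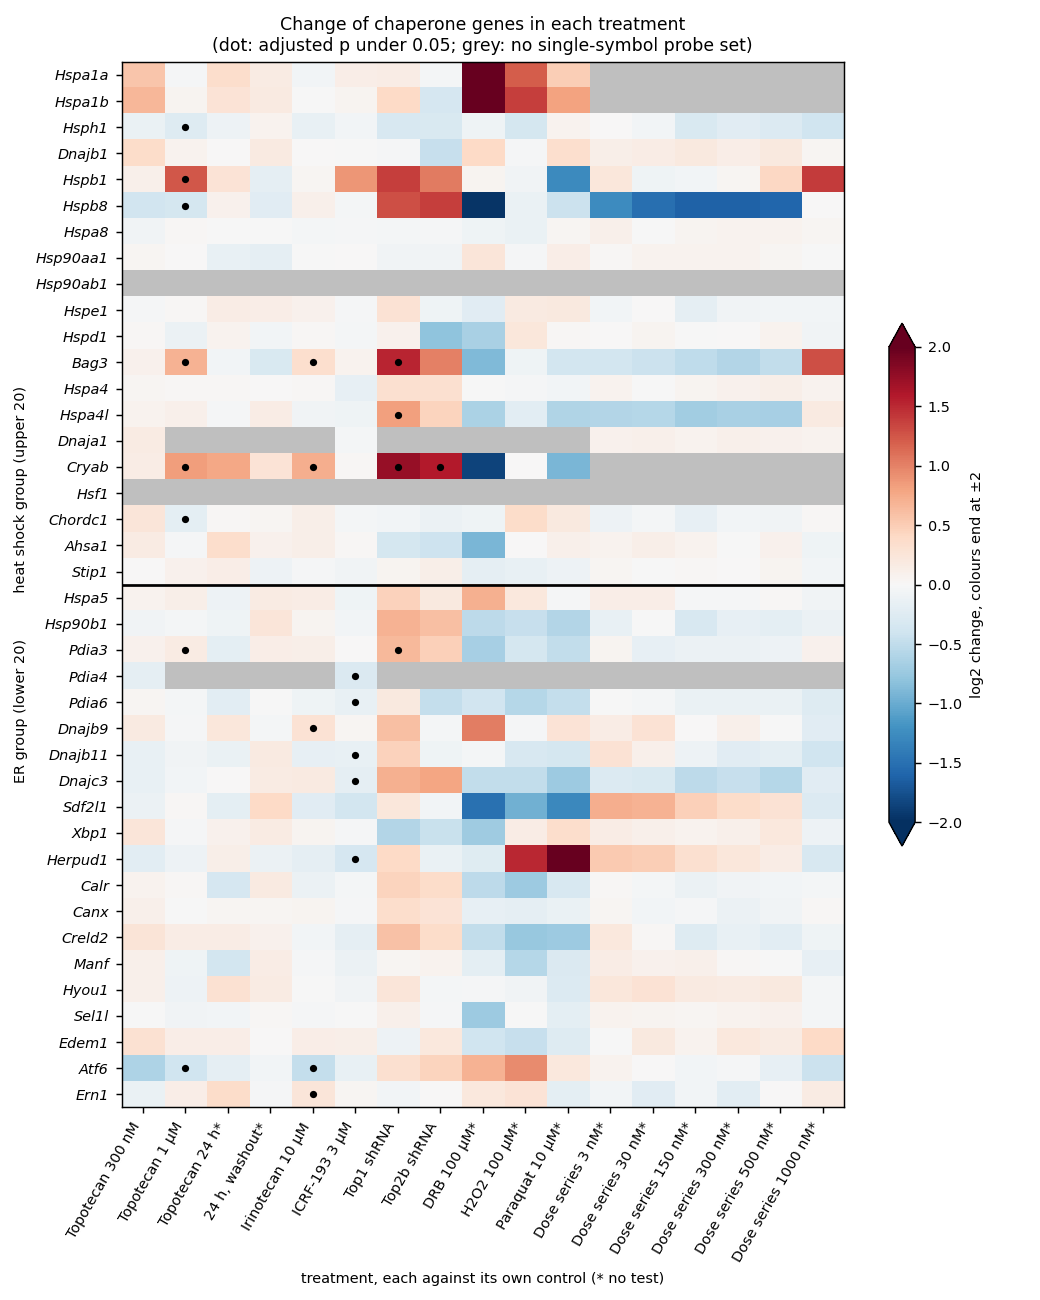
Log2 change (colour, ending at ±2) of each of the 40 members (vertical axis, heat shock group above, ER group below) in each treatment against its own control (horizontal axis); dots mark adjusted p under 0.05, asterisks mark columns with no test and grey marks genes with no single-symbol probe set. Dots gather in Cryab, Bag3 and Atf6, while the strongest colours of Hspa1a, Hspa1b and Herpud1 stand in the columns of DRB and the oxidants.

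The small heat shock proteins and their partner Bag3 held the largest tested changes. Hspb1 encodes HSP27, an ATP-independent holdase that keeps unfolding proteins soluble and guards the actin skeleton. On the topotecan arrays at 1 µM the lowest, median and highest Hspb1 levels were 7.57, 7.95 and 8.18, against 6.11, 6.75 and 7.09 on the vehicle arrays. The groups did not overlap, which held for 19.1% of all genes tested, and the change was 1.25 ± 0.14 (limma, adjusted p = 1.32e-05, n = 6 each). A second, dimmer Hspb1 probe set rose by 0.56 ± 0.15. With topotecan at 300 nM the Hspb1 levels were 8.73, 8.87 and 11.35, against 9.98, 10.16 and 8.50 with vehicle, so both groups spread over more than any difference between them. With ICRF-193 they were 7.91, 7.76 and 9.66, against 7.47, 7.56 and 7.63 with vehicle, a change of 0.89 ± 0.44 that did not pass (adjusted p = 0.201) and in which replicate 3 stood far above the other ICRF-193 arrays.

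Irinotecan gave Hspb1 levels of 4.70, 4.88 and 5.39, against 5.23 and 4.67 with vehicle, and the groups overlapped. These levels lie around the filter limit of 5.01 on this array type, so a lack of response cannot be read from them. With Top1 shRNA they were 5.54, 7.66 and 6.71, against 5.46, 5.11 and 5.21 with control shRNA. All 3 Top1 shRNA arrays lay above the control arrays, and 30.0% of all genes had no overlap there. Replicate 1 was higher by a small step only, and the change of 1.38 ± 0.48 had an adjusted p of 0.0874 in limma. With the array set as a block the same change was called (adjusted p = 0.0319), and within replicates 2 and 3 it was 2.03 ± 0.35 (adjusted p = 0.00397). Top2b shRNA gave 5.78, 6.93 and 6.19, a change of 1.04 ± 0.48 that was called within replicates 2 and 3 (1.40 ± 0.35, adjusted p = 0.0304) and not over all 3 (adjusted p = 0.287). The dim second Hspb1 probe set changed by -0.07 ± 0.44 with Top1 shRNA and 0.07 ± 0.44 with Top2b shRNA, so the probe sets disagree there.

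Cryab encodes alpha-B crystallin, a small heat shock protein of lens, heart, muscle and glia. It was higher in 4 comparisons on the later gene-level arrays. With topotecan at 1 µM the lowest, median and highest levels were 11.16, 11.41 and 11.58, against 10.28, 10.55 and 10.94 with vehicle, a change of 0.83 ± 0.10 (limma, adjusted p = 1.96e-05, n = 6 each) with no overlap. With irinotecan the levels were 9.15, 9.03 and 9.10, against 8.37 and 8.36 with vehicle, a change of 0.73 ± 0.07 (limma, adjusted p = 0.000668). A dim second Cryab probe set rose by 0.90 ± 0.09 with topotecan at 1 µM and differed by 0.18 ± 0.09 with irinotecan, where it did not pass. On the 3' arrays neither drug moved the gene past the test. Levels there were 9.23, 9.38 and 9.75 with topotecan at 300 nM, against 9.25, 8.89 and 9.79 with vehicle.

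The knockdowns gave the largest Cryab changes. Levels were 10.65, 11.14 and 11.05 with Top1 shRNA, against 9.36, 9.24 and 9.02 with control shRNA, a change of 1.74 ± 0.25 (limma, adjusted p = 0.0038). They were 10.39, 11.08 and 10.90 with Top2b shRNA, a change of 1.59 ± 0.25 against the same control arrays (adjusted p = 0.0166). No knockdown array lay within the control range, which held for 30.0% of all genes with Top1 shRNA and 28.1% with Top2b shRNA. The second Cryab probe set changed by 1.69 ± 0.32 with Top1 shRNA (adjusted p = 0.0304) and by 1.07 ± 0.32 with Top2b shRNA, where it did not pass (adjusted p = 0.241). With the array set as a block the adjusted p was 0.000742 for Top1 shRNA and 0.00234 for Top2b shRNA. Without control replicate 2 or 3, or without Top2b shRNA replicate 2 or 3, the Top2b shRNA call was lost, as it was with no filter on dim genes.

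Bag3 encodes a co-chaperone that couples HSP70 and the small heat shock proteins Hspb8 and Cryab to autophagy of aggregated clients. Its levels were 7.67, 7.51 and 8.01 with Top1 shRNA, against 6.57, 6.10 and 5.93 with control shRNA, a change of 1.53 ± 0.24 (limma, adjusted p = 0.00524). With Top2b shRNA they were 7.18, 7.36 and 7.09, a change of 1.01 ± 0.24 that missed the threshold in the fit without a block (adjusted p = 0.0535). The change passed with the replicate block (1.01 ± 0.22, adjusted p = 0.031), though these arrays were not shown to pair by number. It also passed with the array set as a block (adjusted p = 0.0151). All knockdown arrays lay above the control arrays. For topotecan at 1 µM the lowest, median and highest Bag3 levels were 7.23, 7.59 and 7.66, against 6.47, 6.80 and 7.28 with vehicle, a change of 0.69 ± 0.12 (adjusted p = 0.000532) in which the lowest topotecan array lay within the vehicle range. With irinotecan they were 6.10, 6.12 and 6.24, against 5.81 and 5.82 with vehicle, a change of 0.34 ± 0.08 (adjusted p = 0.0185).

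Hspb8, which works in a complex with Bag3, went the other way with topotecan at 1 µM. Its lowest, median and highest levels were 7.56, 7.89 and 8.09 with topotecan, against 7.90, 8.18 and 8.80 with vehicle, a change of -0.36 ± 0.13 (limma, adjusted p = 0.0475) with overlapping groups. The call was lost without any of topotecan replicates 1 to 5 or vehicle replicates 1, 2, 4 or 5. It was also lost with no filter on dim genes, with new quantile normalization and with the replicate block. With Top1 shRNA the Hspb8 levels were 7.81, 8.37 and 8.37, against 7.31, 6.62 and 6.73 with control shRNA, a change of 1.30 ± 0.42 (adjusted p = 0.0739, and 0.0284 with the array set as a block). With Top2b shRNA they were 9.34, 7.83 and 7.63, a change of 1.38 ± 0.42 (adjusted p = 0.111, and 0.0361 with the array set as a block). All knockdown arrays again lay above the control arrays.

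**Figure D3:**
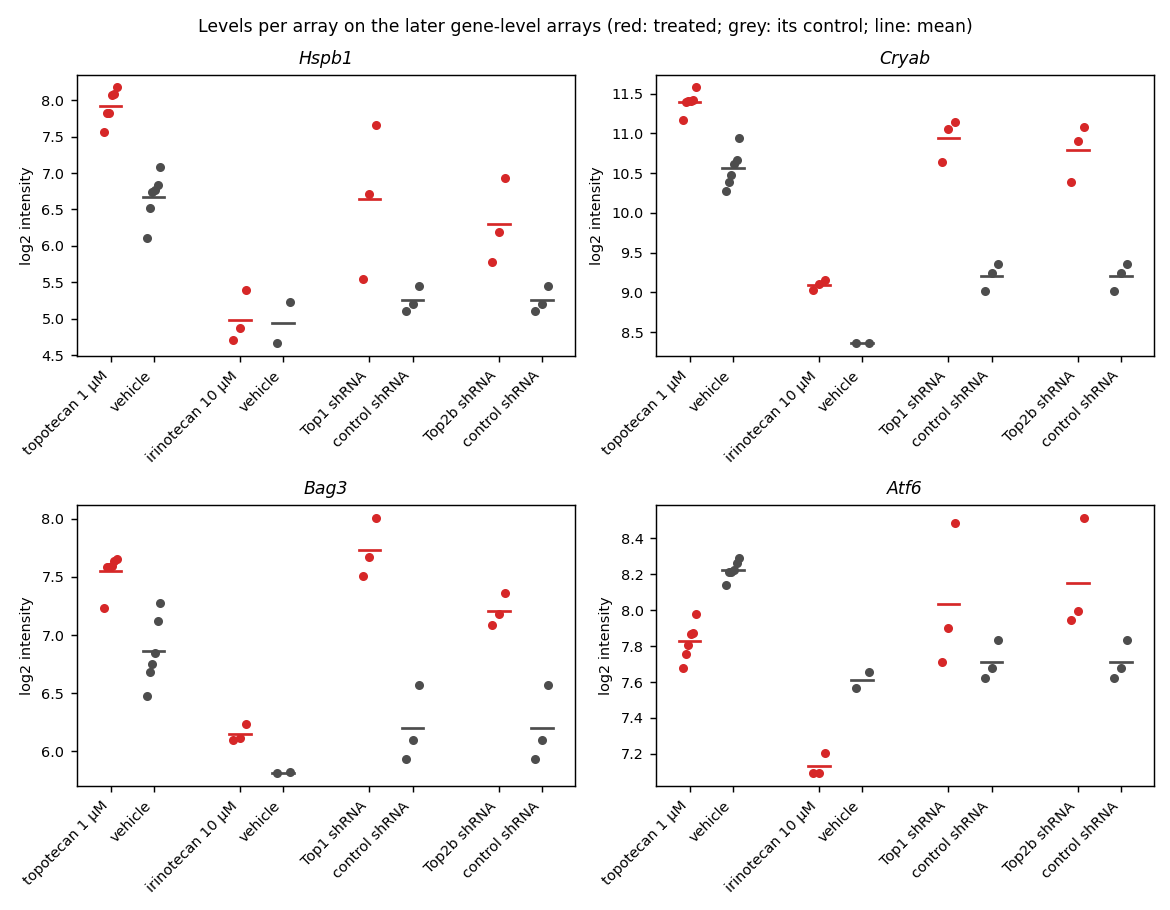
Log2 intensity (vertical axis) of Hspb1, Cryab, Bag3 and Atf6 on each later gene-level array, with treated arrays in red left of their controls in grey and lines at group means. Cryab lies above its controls in all 4 comparisons, Atf6 lies below them with both drugs, and replicate 1 of Top1 shRNA stands near the controls for Hspb1.

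Markers of other cells moved with the same treatments. With Top1 shRNA 6 of 9 fibroblast and mural cell markers rose (median change 1.83; list mean 8.11 to 8.65 with Top1 shRNA, against 6.38 to 7.31 with control shRNA) and 4 of 10 neuron markers fell (median change -1.31; 8.38 to 9.08, against 10.04 to 10.13). Of the astrocyte markers 1 of 9 rose with Top1 shRNA (median change 0.98; 7.95 to 8.71, against 7.55 to 7.87 with control shRNA), and of the dividing-cell markers 1 of 5 (median change 1.73; 7.09 to 8.16, against 6.05 to 6.53). With Top2b shRNA 4 of 9 fibroblast and mural cell markers rose (7.87 to 8.10) and 1 of 10 neuron markers fell (9.16 to 9.36). With Top2b shRNA 0 of 9 astrocyte markers (median change 0.88; 7.78 to 9.60) and 0 of 5 dividing-cell markers (median change 1.05; 6.41 to 8.43) were called. With topotecan at 1 µM 7 of 9 astrocyte markers fell and 1 rose (list mean 7.08 to 7.24 with topotecan, against 8.12 to 8.35 with vehicle), and 8 of 10 neuron markers fell (8.95 to 9.61, against 9.59 to 10.18). With irinotecan 3 of 9 astrocyte markers fell (6.61 to 6.76, against 7.03 to 7.27 with vehicle), and 4 of 10 neuron markers fell and 1 rose (9.75 to 9.80, against 10.17 to 10.21). The part of these shifts in the changes of members was not tested.

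The HSP70, HSP40 and HSP90 machines showed few called changes with the topoisomerase inhibitors. The inducible pair is read with care, since probes for Hspa1a and Hspa1b can take up each other's RNA. Under 1 µM topotecan the Hspa1a levels were 6.97, 7.14 and 7.33 (lowest, median and highest), against 7.03, 7.13 and 7.50 with vehicle, a change of -0.03 with a 95% interval of -0.21 to 0.15. Hspa1b gave 5.16, 5.81 and 6.22 with topotecan, against 5.54, 5.71 and 5.96 with vehicle, a change of 0.06 (95% interval -0.27 to 0.38). Both pairs of groups overlapped. With Top1 shRNA Hspa1b gave 5.73, 6.72 and 6.08, against 6.53, 5.49 and 5.31 with control shRNA, and within replicates 2 and 3 it rose (1.00 ± 0.23, adjusted p = 0.013). With topotecan at 300 nM Hspa1b gave 10.38, 11.32 and 11.95, against 10.65, 11.28 and 9.73 with vehicle, and a change of 0.66 with an interval of -0.47 to 1.80. That comparison could not show a change of the size seen between its own vehicle arrays.

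Hspa8, the constitutive HSC70 of the cytosol, had levels of 12.10, 12.14 and 12.16 with topotecan at 1 µM, against 12.02, 12.12 and 12.18 with vehicle. The change was 0.03 (95% interval -0.07 to 0.12) on its brightest probe set, and a pair of dimmer Hspa8 probe sets rose by 0.44 and 0.45, so the probe sets disagree. With the mean of probe sets Hspa8 was called higher (0.25 ± 0.06, limma, adjusted p = 0.00478). Hsp90aa1, the inducible HSP90, had 7.64, 7.72 and 7.78 with topotecan, against 7.57, 7.73 and 7.81 with vehicle, a change of 0.01 (95% interval -0.10 to 0.13). Dnajb1, the J-domain protein that delivers clients to HSP70, had 7.57, 7.62 and 7.79 with topotecan, against 7.48, 7.51 and 7.71 with vehicle, a change of 0.07 (95% interval -0.06 to 0.20). These groups overlapped throughout. In the 11 heat shock genes not called with topotecan at 1 µM, changes ran between -0.12 (Hspd1, the mitochondrial HSP60) and 0.10 (Hspa4l).

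Hsph1, an HSP110 protein that exchanges the nucleotide of HSP70, was lower with topotecan at 1 µM and, as given further on, along the dose series. At 1 µM topotecan its lowest, median and highest levels were 8.24, 8.40 and 8.47, against 8.45, 8.62 and 8.79 with vehicle, a change of -0.26 ± 0.07 (limma, adjusted p = 0.00684). Chordc1, an HSP90 co-chaperone, changed by -0.19 ± 0.06 (adjusted p = 0.0276), with levels of 8.88, 9.03 and 9.13 with topotecan, against 9.06, 9.20 and 9.38 with vehicle. Both groups overlapped their controls at the edges. Without topotecan replicate 1, or without vehicle replicate 1, 5 or 6, Chordc1 was not called, nor was it with the replicate block. On the 3' arrays Dnajb1 had 10.92, 11.00 and 11.08 with topotecan at 300 nM, against 10.68, 10.59 and 10.62 with vehicle, a change of 0.37 ± 0.10 that did not pass (adjusted p = 0.0983). With ICRF-193 it had 10.25, 10.25 and 10.27, against 10.23, 10.22 and 10.32 with vehicle, and the difference of these effects, topotecan minus ICRF-193, was 0.37 ± 0.09 (adjusted p = 0.0496; 3.60% of all genes were called in that test, 1.19% higher and 2.41% lower). Dnajb1 was the 1 member called in the difference of effects, a fit in which the topotecan and ICRF-193 arrays share their spread. The call held in 5 of 17 alternatives and was lost with the replicate block (adjusted p = 0.13), with the mean of probe sets (adjusted p = 0.203) and with no filter on dim genes (adjusted p = 0.0817). Leaving out any ICRF-193 or ICRF-193 vehicle array, topotecan replicate 2 or 3, or topotecan vehicle replicate 2 ended it as well.

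Hspa4l, a testis- and brain-expressed HSP110 protein, rose with Top1 shRNA. Levels were 9.10, 9.85 and 9.68 with Top1 shRNA, against 8.74, 8.75 and 8.67 with control shRNA, a change of 0.82 ± 0.24 (limma, adjusted p = 0.0489, and 0.00903 with the array set as a block). The lowest Top1 shRNA array was replicate 1. Leaving out any control array, Top1 shRNA replicate 2 or 3, or Top2b shRNA replicate 2 or 3 (which enters the shared spread) ended the call. So did the mean of probe sets, no filter on dim genes and new quantile normalization. Top1 and Top2b shRNA did not separate: 0 of 36 members and 0% of all genes were called in the direct contrast, while 2 members and 6.06% of all genes had an unadjusted p under 0.05 in limma. Within replicates 2 and 3 alone, 10 members were higher with Top1 shRNA than with Top2b shRNA, beside 6.43% of all genes higher. The changes there ran from 0.49 (Hyou1) to 1.18 (Hspd1).

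Among the resident ER chaperones and folding enzymes, Pdia3 was called higher with topotecan at 1 µM and with Top1 shRNA. Hspa5 (BiP), the ER HSP70, had levels of 8.61, 8.77 and 8.83 with topotecan at 1 µM (lowest, median and highest), against 8.55, 8.65 and 8.71 with vehicle, a change of 0.11 (95% interval -0.00 to 0.22; limma, adjusted p = 0.106). With irinotecan Hspa5 had 7.89, 8.02 and 8.06, against 7.87 and 7.80 with vehicle. The irinotecan arrays all lay above the vehicle arrays, and 57.1% of all genes had no overlap in that comparison. The change of 0.15 did not pass (adjusted p = 0.209). With Top1 shRNA it was called within replicates 2 and 3 alone (0.50 ± 0.13, adjusted p = 0.0218). Pdia3, a disulphide isomerase that works with the lectin chaperones, changed by 0.16 ± 0.06 with topotecan at 1 µM (adjusted p = 0.0464), with levels of 11.31, 11.45 and 11.51 with topotecan, against 11.11, 11.27 and 11.40 with vehicle. Pdia3 had 11.06, 11.11 and 11.11 with Top1 shRNA, against 10.44, 10.53 and 10.35 with control shRNA, a change of 0.66 ± 0.19 (adjusted p = 0.0473, and 0.00908 with the array set as a block). The Pdia3 groups overlapped with topotecan and did not overlap with Top1 shRNA, where 30.0% of all genes did not. The topotecan call was lost without any of topotecan replicates 1, 2, 5 or 6 or vehicle replicates 1, 2, 3, 5 or 6, and the Top1 shRNA call without any control array or without replicate 2 or 3 of either knockdown. No filter on dim genes, new quantile normalization and the replicate block also lost the topotecan call. The mean of probe sets and no filter lost the Top1 shRNA call. Hsp90b1, the ER HSP90, had 10.26, 11.01 and 11.23 with Top1 shRNA, against 9.68, 10.43 and 10.28 with control shRNA, and the groups overlapped. Its change of 0.70 did not pass without a block (adjusted p = 0.158) and was called with the array set as a block (± 0.18, adjusted p = 0.0185) and within replicates 2 and 3 (0.76, adjusted p = 0.00536).

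ICRF-193 lowered 5 ER genes by small, tight steps. Herpud1, a membrane protein of ER-associated degradation, had levels of 10.12, 10.18 and 10.14 with ICRF-193, against 10.49, 10.53 and 10.42 with vehicle, a change of -0.33 ± 0.04 (limma, adjusted p = 0.00249). Pdia4, a disulphide isomerase, had 9.35, 9.27 and 9.23, against 9.62, 9.45 and 9.64 with vehicle, a change of -0.29 ± 0.06 (adjusted p = 0.0168). A dim second Pdia4 probe set changed by 0.19 ± 0.07 and did not pass. Dnajc3, a J-domain partner of BiP that also restrains the sensor PERK, had 9.47, 9.49 and 9.38, against 9.63, 9.70 and 9.56 with vehicle, a change of -0.18 ± 0.05 (adjusted p = 0.0395). Pdia6, which helps to switch IRE1 off, changed by -0.15 ± 0.04 (adjusted p = 0.03), with 11.14, 11.13 and 11.15, against 11.32, 11.25 and 11.30 with vehicle. Dnajb11, another J-domain partner of BiP, changed by -0.14 ± 0.03 (adjusted p = 0.0278), with 10.32, 10.33 and 10.37, against 10.47, 10.49 and 10.48 with vehicle.

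None of these 5 ICRF-193 groups overlapped its vehicle group, which held for 39.2% of all genes tested. Same-numbered ICRF-193 and vehicle arrays deviated together, and with the replicate block 10 members were lower, 1 of the heat shock group (Hspa4, an HSP110 protein) and 9 of the ER group, which adds Atf6, Creld2, Manf and Sdf2l1, beside 13.8% of all genes lower. Herpud1 was called without each array in turn. The number of lower members was 1 without ICRF-193 replicate 3 or without vehicle replicate 1, 2 without ICRF-193 replicate 1 or 2, 3 without vehicle replicate 2 and 8 without vehicle replicate 3. Hspa5 had 12.85, 12.90 and 12.83 with ICRF-193, against 12.96, 12.96 and 12.93 with vehicle, a change of -0.09 that did not pass (adjusted p = 0.133). In the same comparison 7 of 9 astrocyte markers fell (list mean 10.03 to 10.23 with ICRF-193, against 10.46 to 10.69 with vehicle), and their part in the ER changes was not tested.

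The sensors and regulators of the ER arm were led by Atf6. Atf6 is the gene of the ATF6 alpha sensor and spans 164.1 kb, the longest of the 40 members, beside medians of 16.0 kb in the ER group and 10.5 kb in the heat shock group (RefSeq spans). With topotecan at 1 µM the lowest, median and highest levels were 7.68, 7.84 and 7.98, against 8.14, 8.22 and 8.29 with vehicle, a change of -0.40 ± 0.06 (limma, adjusted p = 8.18e-05). With irinotecan they were 7.09, 7.09 and 7.21, against 7.57 and 7.65 with vehicle, a change of -0.48 ± 0.08 (adjusted p = 0.00522). Neither pair of groups overlapped, which held for 57.1% of all genes with irinotecan. With topotecan at 300 nM they were 8.37, 8.37 and 8.11, against 8.70, 8.92 and 9.11 with vehicle, also without overlap (29.5% of all genes), and a change of -0.62 ± 0.15 that missed the threshold (adjusted p = 0.0619) and passed without vehicle replicate 1 (-0.73, adjusted p = 0.048). In that comparison 4 of 9 astrocyte markers fell (list mean 9.37 to 9.94 with topotecan, against 10.66 to 10.91 with vehicle), and their part in it was not tested. With ICRF-193 they were 8.50, 8.60 and 8.46, against 8.66, 8.67 and 8.67 with vehicle (change -0.15 ± 0.05, adjusted p = 0.0592, and 0.0444 with the replicate block).

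The knockdowns did not lower Atf6 past the test. Levels were 8.49, 7.90 and 7.71 with Top1 shRNA, against 7.83, 7.68 and 7.62 with control shRNA, a change of 0.32 ± 0.26 (adjusted p = 0.501). The difference between topotecan at 300 nM and ICRF-193 in their Atf6 effects, -0.47 ± 0.15, did not pass either (adjusted p = 0.121). Ern1, the gene of the IRE1 alpha sensor, is the next longest member at 90.2 kb and went up with irinotecan, with 6.63, 6.71 and 6.69, against 6.45 and 6.42 with vehicle, a change of 0.25 ± 0.07 (adjusted p = 0.0422). Dnajb9, a J-domain protein that holds IRE1 inactive, had 7.99, 7.95 and 8.06 with irinotecan, against 7.72 and 7.69 with vehicle, a change of 0.29 ± 0.07 (adjusted p = 0.026). Bag3, Dnajb9 and Ern1 were each not called with irinotecan once replicate 3 or either vehicle array was left out, and Dnajb9 and Ern1 not once replicate 2 was. None of them was called with no filter on dim genes or with the replicate block, and Ern1 not with new quantile normalization.

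At 1 µM topotecan these regulators did not pass the test. Xbp1, the transcript that IRE1 splices, had 9.33, 9.52 and 9.64 with topotecan, against 9.36, 9.53 and 9.65 with vehicle, a change of -0.02 (95% interval -0.16 to 0.11). Dnajb9 had 8.32, 8.60 and 8.75, against 8.42, 8.60 and 8.73 with vehicle, a change of -0.02 (95% interval -0.18 to 0.14). Herpud1 had 8.12, 8.21 and 8.23, against 8.21, 8.32 and 8.36 with vehicle, a change of -0.10 (95% interval -0.21 to 0.00; adjusted p = 0.105). All 3 pairs of groups overlapped. The arrays give the total of Xbp1 RNA and do not separate its spliced form. With Top1 shRNA Xbp1 had 8.90, 8.70 and 8.79, against 9.19, 9.38 and 9.57 with control shRNA. Its change of -0.58 was called with the array set as a block (± 0.19, adjusted p = 0.046) and within replicates 2 and 3 (-0.73, adjusted p = 0.00544).

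As groups, the cytosolic and ER members moved little with the topoisomerase drugs. The median change of the heat shock group and of the ER group was 0.02 and -0.02 with topotecan at 1 µM, beside -0.01 over all genes tested, and the median size of change was 0.09 and 0.07, beside 0.16. With irinotecan the medians were 0.02 and -0.00, beside 0.07 over all genes. With ICRF-193 they were -0.02 and -0.08, beside 0.00, and the median size was 0.05 in the heat shock group and 0.10 in the ER group, beside 0.08. With topotecan at 300 nM they were 0.07 and 0.05, beside 0.06. Top1 shRNA gave 0.15 and 0.35, beside -0.02, and Top2b shRNA gave -0.04 and 0.07, beside -0.04. The doses of topotecan and irinotecan differ and the drugs were on arrays normalised apart, so their values stand side by side without a test of the difference.

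With the transcription inhibitor and the oxidants, each on 1 treated array and so with no test, the largest difference of a member was that of Hspa1b with DRB and that of Herpud1 with each oxidant. Members past 1.5-fold (0.58 in log2) are given, with the share of all genes past that limit. With DRB 15 of 36 members passed it, 5 higher and 10 lower, beside 49.2% of all genes, 12.2% higher and 37.0% lower, and the median over all genes was -0.34. Hspa1b had 9.97 with DRB, against 6.79 with vehicle, a difference of 3.18. Hspa1a had 9.87, against 7.65 with vehicle, a difference of 2.22. These were the 2 largest differences of any member in any treatment against its control, and they stood 3.52 and 2.56 above the median of all genes. Dnajb9 had 9.70, against 8.68, Hspa5 had 9.40, against 8.70, and Atf6 had 8.89, against 8.20 with vehicle, so 3 ER genes were also higher.

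The lower members with DRB were led by Hspb8, Cryab and Sdf2l1. Hspb8 had 5.96 with DRB, against 7.92 with vehicle (difference -1.96), and Cryab had 8.30, against 10.14 (difference -1.85). Sdf2l1, an ER-resident partner of BiP and its J-domain proteins, had 5.93, against 7.43 (difference -1.50). The other 7 lower members ran from -0.91 (Ahsa1, the activator of the HSP90 ATPase) to -0.63 (Hspa4l) and included Bag3 (-0.88), Sel1l (-0.72), Xbp1 (-0.71), Pdia3 (-0.66) and Hspd1 (-0.65). Relative to the median of all genes these 7 lay between -0.57 and -0.29. After quantile normalization of both arrays all 15 kept their sign and 12 stayed past the limit. The heat shock group's median was -0.09 and the ER group's -0.38, beside -0.34 over all genes. In the same pair of arrays 8 of 9 astrocyte markers were lower (list mean 6.51 with DRB, against 8.25 with vehicle). Also lower were 6 of 9 fibroblast and mural cell, 3 of 5 microglia, 3 of 4 oligodendrocyte lineage and 4 of 10 neuron markers, beside 37.0% of all genes. Dividing-cell markers were lower in 2 of 5 and higher in 1, and endothelial markers lower in 1 of 3 and higher in 1. The part of these markers in the Cryab and Hspb8 differences was not tested.

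**Figure D4:**
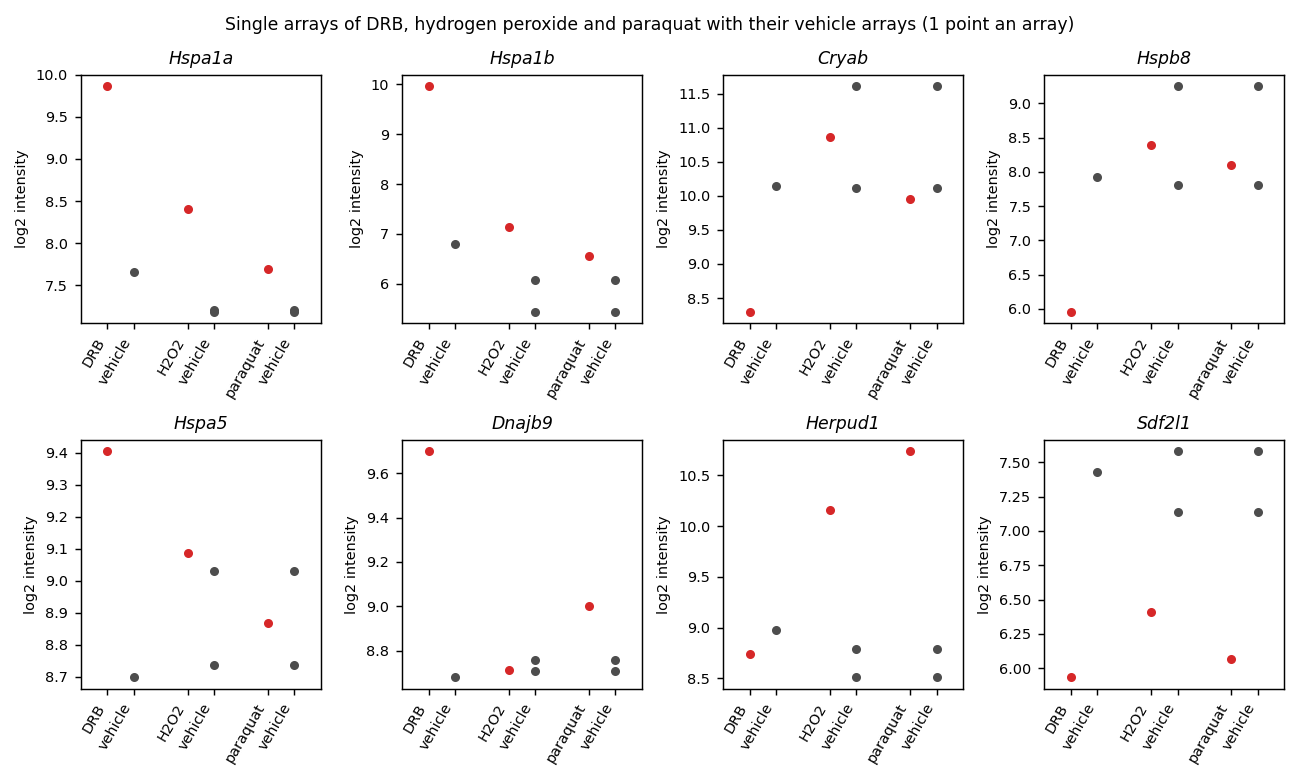
Log2 intensity (vertical axis, 1 point an array) of 8 members with DRB, hydrogen peroxide and paraquat (red), each left of its vehicle arrays (grey); the 2 oxidants share their vehicle arrays. Hspa1a and Hspa1b stand highest with DRB, Herpud1 stands above its vehicles with both oxidants and not with DRB, and the 2 vehicle points of Cryab and Hspb8 lie far apart.

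Hydrogen peroxide put 7 of 36 members past 1.5-fold, beside 12.9% of all genes (7.93% higher, 5.00% lower). Herpud1 had 10.16 with H2O2, against 8.51 and 8.79 with vehicle (difference 1.51). Hspa1b had 7.14, against 6.08 and 5.43 (difference 1.39), and Hspa1a had 8.41, against 7.18 and 7.21 (difference 1.22). Atf6 had 9.23, against 8.19 and 8.37 (difference 0.95). Lower were Sdf2l1 at 6.41, against 7.58 and 7.14 (difference -0.95), Creld2, an ER disulphide isomerase (-0.75), and Calr, the calcium-binding lectin chaperone (-0.73). All 7 lay outside the range of the 2 vehicle arrays, as did 83.4% of all genes past the limit. The ER group's median was -0.32 and the heat shock group's -0.02, beside 0.08 over all genes. In the same arrays 5 of 9 astrocyte markers were lower (list mean 7.58 with H2O2, against 8.10 and 8.20 with vehicle), 6 of 9 fibroblast and mural cell markers (median difference -0.64; 7.70, against 7.82 and 8.93) and 3 of 5 dividing-cell markers (median difference -2.05; 6.80, against 7.52 and 8.85). Their part in the differences of members was not tested.

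Paraquat put 9 of 36 members past 1.5-fold, beside 20.8% of all genes (13.7% higher, 7.15% lower), and all 9 lay outside the vehicle range, as did 86.9% of all genes past the limit. Herpud1 had 10.74 with paraquat, against the same 8.51 and 8.79 (difference 2.09), and was the largest of them. Hspa1b had 6.57 (difference 0.81), and Hspa1a had 7.69, short of the limit. Sdf2l1 had 6.07 (difference -1.29), Hspb1 had 5.71, against 7.88 and 6.08 with vehicle (difference -1.27), and Cryab had 9.95, against 11.62 and 10.12 (difference -0.92). Dnajc3 (-0.72), Creld2 (-0.72), Hspa4l (-0.61) and Hsp90b1 (-0.59) were the others lower. The vehicle arrays themselves lay 1.80 apart in Hspb1 and 1.45 apart in Hspb8, and the Hspb1 and Cryab differences are smaller than the gap between the vehicles. Neuron markers were higher in 6 of 10, and their mean was 10.61 with paraquat, against 9.16 and 10.58 with vehicle. Fibroblast and mural cell markers were lower in 5 of 9 (list mean 7.94 with paraquat, against 7.82 and 8.93 with vehicle) and dividing-cell markers in 4 of 5 (7.34, against 7.52 and 8.85). The part of these markers in the differences was not tested.

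Of the 24 h topotecan arrays, the array without washout put 1 of 36 members past 1.5-fold, beside 9.90% of all genes (4.63% higher, 5.28% lower). Cryab had 9.14 on it, against 8.37 and 8.36 with vehicle (difference 0.77), and 8.64 on the array after washout. The washout array put 0 of 36 members past the limit, beside 0.819% of all genes (0.398% higher, 0.421% lower). Atf6 had 7.42 at 24 h and 7.55 after washout, against 7.57 and 7.65 with vehicle, with no difference past the limit.

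Over the dose series 1 of 34 members, Hsph1, followed the rank of the dose, beside 3.45% of all genes (1.95% lower). Its levels were 10.15, 10.21 and 10.15 with vehicle, 10.17 at 3 nM, 10.11 at 30 nM, 9.87 at 150 nM, 9.92 and 9.96 at 300 nM, 9.90 at 500 nM and 9.77 at 1000 nM. From 30 nM on, every array lay below the vehicle arrays, and the slope was -0.06 ± 0.01 for each step of dose (limma, adjusted p = 0.0167). It was called without each array in turn. Without the 1000 nM array Dnajc3 was called too (-0.12, adjusted p = 0.0391).

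Vehicle replicates 1 and 2 and the 1000 nM array stood apart from the other 7 arrays, and single doses are read with that in view. The astrocyte marker mean was 9.95, 9.98 and 7.82 on the vehicle arrays, 7.28 to 8.09 at 3 to 500 nM and 8.83 at 1000 nM. Hspb8 had 9.88, 10.08 and 7.87 with vehicle, 7.45 to 8.02 at 3 to 500 nM and 9.28 at 1000 nM. Its differences of -1.26 to -1.61 at 3 to 500 nM stand against a vehicle mean of 9.28, while vehicle replicate 3 alone lay within the range of those doses. Hspa4l had 9.83, 9.92 and 8.89 with vehicle, 8.85 to 8.98 at 3 to 500 nM and 9.73 at 1000 nM, the same split. Sdf2l1 passed 1.5-fold at 3 and 30 nM (9.19 and 9.15) within the vehicle range of 8.00 to 9.31. The shares of all genes past 1.5-fold were 7.86% at 3 nM, 9.32% at 30 nM, 10.2% at 150 nM, 9.82% at 300 nM, 11.1% at 500 nM and 10.8% at 1000 nM, with 2 of 34 members at each dose.

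Hspb1 and Bag3 were past 1.5-fold on the 1000 nM array and at no other dose. Hspb1 had 7.60, 7.57 and 7.73 with vehicle, 7.86 at 3 nM, 7.55 at 30 nM, 7.58 at 150 nM, 7.70 and 7.65 at 300 nM, 8.05 at 500 nM and 9.04 at 1000 nM, the last 1.41 above the vehicle mean. The 3 vehicle arrays held close together for Hspb1, unlike for Hspb8. Bag3 had 7.83, 7.83 and 7.26 with vehicle, 6.95 to 7.27 at 3 to 500 nM and 8.93 at 1000 nM, which is 1.29 above the vehicle mean. With 1 array at this dose neither difference has a replicate check. On the same 1000 nM array 5 of 9 fibroblast and mural cell markers were past 1.5-fold higher and 1 lower (list mean 9.21, against 8.60 to 9.09 with vehicle). The neuron marker mean was 10.60, against 10.99 to 11.27 with vehicle. The part of these markers in the Hspb1 and Bag3 differences was not tested. On the later gene-level arrays the same 2 genes were called higher with topotecan at 1 µM, the same nominal dose.

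**Figure D5:**
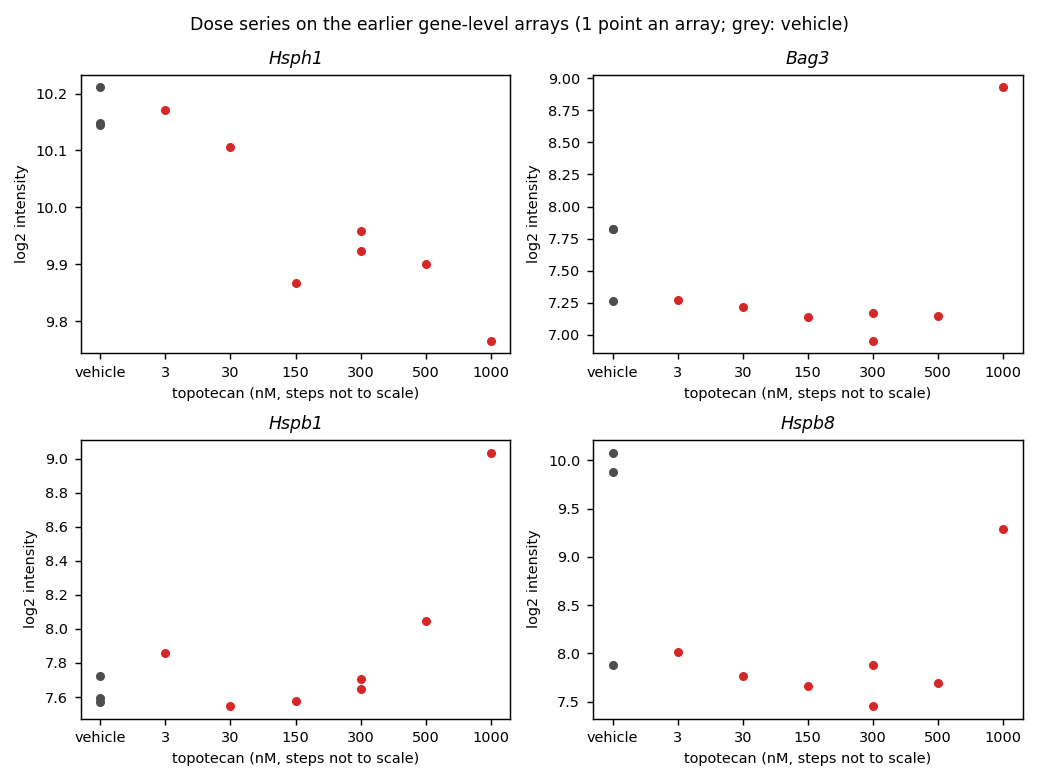
Log2 intensity (vertical axis, 1 point an array) of Hsph1, Bag3, Hspb1 and Hspb8 with vehicle (grey) and 3 to 1000 nM topotecan (red; steps of the horizontal axis not to scale). Hsph1 lies below all vehicle arrays from 30 nM on, Hspb1 and Bag3 stand out at 1000 nM, and Hspb8 is high on 2 vehicle arrays and at 1000 nM.

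Other genes of the same pathways, 44 cytosolic and 48 ER, also changed in part. At 1 µM topotecan 6 of 41 tested cytosolic genes rose and 6 fell, and 11 of 44 ER genes rose and 5 fell, beside 18.3% higher and 20.8% lower over all genes. Fkbp14, an ER prolyl isomerase of collagen folding, was called higher in all 4 drug comparisons of groups. It changed by 1.13 ± 0.15 with topotecan at 300 nM, 0.62 ± 0.06 with topotecan at 1 µM, 0.81 ± 0.10 with irinotecan and 0.24 ± 0.06 with ICRF-193, and the difference of topotecan at 300 nM minus ICRF-193 was 0.89 ± 0.17 (limma, adjusted p = 0.0174). Sil1, the nucleotide exchange factor of BiP, changed by -0.52 with 1 µM topotecan and -0.61 with irinotecan. Hspa2, an HSP70 protein best known from testis, changed by -0.51 and -0.64 with the same drugs. Serpinh1, the collagen chaperone HSP47, rose by 1.70 ± 0.25 with Top1 shRNA and by 1.43 ± 0.25 with Top2b shRNA, alongside the fibroblast and mural cell markers above. Irinotecan raised 7 of 41 cytosolic and 7 of 44 ER genes and lowered 3 and 1, beside 16.5% higher and 11.7% lower over all genes. ICRF-193 raised 4 of 41 and 2 of 47 and lowered 4 and 5, beside 8.29% higher and 10.3% lower. Among the lower genes was Atf4, the transcription factor of the PERK arm (-0.31 ± 0.04).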

How the data were processed

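Gene expression was measured on 56 Affymetrix arrays of 3 types. The deposited values were linear intensities that the authors made with Affymetrix Expression Console and RMA, per the submitters' processing notes, with versions not given in the sources used here. Log2 of the deposited intensity was taken here. Sets of arrays had different mean levels, so each treatment was set against its own controls only, as titles and treatment labels give them. Several description lines name another treatment and were not used. Each gene was read from its brightest single-symbol probe set, and the dimmest genes of each array type, up to the 40th percentile of their mean, were left out. Groups were compared with limma 3.58.1 in R 4.3.3 (lmFit, eBayes, 2-sided), with Benjamini-Hochberg adjustment over all genes tested and a threshold of 0.05. The script was tested on simulated data. The 3 shRNA groups shared a fit, and the dose series was fitted on the rank of the dose. Single treated arrays had no test and a limit of 1.5-fold. The number of arrays limits the precision.

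The members and gene lists were chosen with earlier results of these data known. Every called member was named, with values on each array for up to the 6 largest changes a comparison. With topotecan at 1 µM the lowest, median and highest levels stand in their place, there also for 10 set genes. Pathway genes outside the set were named by largest change, up to 4 a list. Same-numbered arrays were checked by the correlation of their deviations from group means. For ICRF-193 they were 0.38, 0.23 and 0.38, beside at most -0.09, 0.05 and -0.09 with another number, so those numbers were taken to pair the arrays. For Top2b shRNA they were 0.45, 0.39 and 0.35, beside at most -0.39, 0.40 and 0.31 with another number. There only replicate 1 stood apart, and pairing by number was not shown. Alternatives were the mean of probe sets, the probe set brightest in controls, no filter, a new quantile normalization, a replicate block, the array set as a block or replicates 2 and 3 alone, and each array left out.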

Additional observations from a re-analysis of the deposited data

Results flagged for a closer look

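With topotecan at 1 µM and its vehicle, 72 sets of a member in a group of 6 arrays were checked for an array far from the others, and 7 held one (9.72%), where chance gives about 1 in 20. Bag3 was 7.23 on topotecan replicate 4, below 7.58 to 7.66 on the others. Dnajb1 was 7.79 on topotecan replicate 1, above 7.57 to 7.64 on the others. Hsp90b1 was 11.05 on vehicle replicate 4, above 10.82 to 10.91 on the others. Hspa1a was 7.5 on vehicle replicate 5, above 7.03 to 7.20 on the others. Hspa4 was 9.92 on topotecan replicate 3, below 10.06 to 10.14 on the others. Hspd1 was 9.7 on topotecan replicate 1, below 9.84 to 9.88 on the others, and 10.07 on vehicle replicate 2, above 9.91 to 9.97 on the others. The Dnajb1 effect of topotecan at 300 nM exceeded that of ICRF-193 by 0.37 in log2, by the test of the difference in limma (adjusted p = 0.0496). The difference was called in 5 of 17 alternatives, and not with the replicate block (adjusted p = 0.13), the mean of probe sets (adjusted p = 0.203) or no filter on dim genes (adjusted p = 0.0817).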

How the results depend on the processing

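No direction of a called member turned under any alternative. Called members, counts over all genes and medians of the heat shock and ER groups were pooled, and 471 of their alternative values stayed the same. The call of a member was lost in 106. The 103 values that moved were counts over all genes (by more than 1.5-fold) or group medians (by at least the spread among arrays). Hspb1, Cryab, Bag3, Hsph1 and Atf6 with topotecan at 1 µM, Cryab and Atf6 with irinotecan, Cryab and Bag3 with Top1 shRNA, Herpud1 with ICRF-193 and Hsph1 over dose were called under every alternative run.

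With the replicate block the count lower with ICRF-193 was 10, that lower with topotecan at 1 µM 2, those higher with irinotecan 1, Top1 shRNA 7 and Top2b shRNA 2, and that higher in the difference of topotecan at 300 nM and ICRF-193 0. Beyond ICRF-193, same-numbered arrays shared a number, and for the knockdowns also an array set, but were not shown to be paired. Their correlations were -0.45 to -0.01 for topotecan at 300 nM, -0.53 to 0.25 for topotecan at 1 µM and -0.03 to -0.01 for irinotecan. For Top1 shRNA they were 0.06 to 0.32 and for Top2b shRNA 0.35 to 0.45. Over all genes the block left 0 higher and 1 lower with topotecan at 300 nM, against 142 and 338 without it. With no filter on dim genes the counts were 2 lower with ICRF-193, 1 higher with irinotecan, 2 higher with Top1 shRNA, 0 higher with Top2b shRNA and 0 for the difference. The mean of probe sets gave 2 higher with Top1 shRNA and 0 for the difference, and moved the ER median with DRB to -0.24. New quantile normalization gave 1 higher with ICRF-193, 2 lower with irinotecan, 2 higher with Top2b shRNA, an ER median of 0.0028 at 24 h of topotecan and of -0.24 with DRB. With the array set as a block 7 were higher and 1 lower with Top1 shRNA and 4 higher with Top2b shRNA. Within replicates 2 and 3 they were 13 and 2 with Top1 shRNA, 5 and 3 with Top2b shRNA, and 10 were higher with Top1 than with Top2b shRNA. Leaving out each array gave 0 to 1 lower with topotecan at 300 nM, 1 to 8 lower with ICRF-193, 3 to 6 higher and 2 to 4 lower with topotecan at 1 µM, 1 to 4 higher with irinotecan, 2 to 6 higher with Top1 shRNA, 0 to 2 higher and 0 to 1 lower with Top2b shRNA, 1 to 2 lower over dose, and 0 to 1 higher and 0 to 1 lower in the difference. Where a count moved, the cause was not tested. Dim second probe sets, groups of 2 or 3 arrays and single treated arrays limit what can be read.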
